A study of Mus musculus with 9 samples.

Results

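The genes described here are 9 target or effector genes of MLL fusion leukemia outside the Hox clusters: Meis1, Pbx3, Myb, Mef2c, Mecom, Eya1, Flt3, Cdk6 and Bcl2. They were taken by gene symbol from 6 tables of histone mark counts, where all 9 were found among 26611 named genes. The tables come from mouse leukemia cells carrying MLL-ENL, a fusion of the MLL (Kmt2a) and ENL (Mllt1) proteins. H3K27me3, H3K4me3 and a Flag (M2) immunoprecipitation were each sequenced in cells of 3 genotypes, with 1 library per combination. The genotypes are labelled fl (floxed), ΔERT2 (deleted) and ΔERT2 + Hhex-F (rescue), and all 3 carry the same fusion. Which gene is floxed is not stated in the labels; the series title and the tagged gene point to Hhex, a homeodomain factor, and PRC2 repression is the question the title names. Whether the cells of a genotype are 1 clone or 1 leukemia is not stated either.

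MLL fusion proteins bind at CpG-rich promoters and bring in the elongation machinery and the H3K79 methyltransferase Dot1l, which keeps a stem-cell-like programme transcribed. H3K4me3 marks active or poised promoters, and H3K27me3, written by Polycomb repressive complex PRC2, marks silenced chromatin. H3K27me3 is usually low over transcribed genes and high over genes that a cell keeps silent.

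Named genes held 2444487, 2535576 and 4203349 H3K27me3 counts in the floxed, deleted and rescue libraries, and 645240, 420701 and 395133 H3K4me3 counts. With 1 library a group no test between genotypes was possible, and every interval below is a 95% interval of counting error only. Hhex had 332, 385 and 487 H3K27me3 counts, or 136, 152 and 116 CPM (counts scaled to the library total of named genes). For H3K4me3 it had 60, 68 and 130 counts, or 93.0, 162 and 329 CPM. Counted over a whole gene span and a fixed window, these values do not check the deletion. Of the markers of the labelled cell type, all 6 myeloid and leukocyte markers not annotated on the minus strand averaged 20 H3K4me3 counts or more, and so had 3 of 4 progenitor markers. The same held for 1 of 3 B-cell markers (Ebf1), 0 of 2 T-cell, 0 of 2 erythroid and 1 of 6 epithelial, stromal and endothelial markers (Cdh1). The myeloid gene Mpo had 5, 6 and 483 H3K27me3 counts, so the rescue library stands apart from both others there. Summed over the 10 myeloid markers, H3K27me3 was 31.1, 25.6 and 147 CPM. Without Mpo the sum over the other 9 was 29.04, 23.3 and 31.9 CPM, and the part of this in the results on the 9 genes was not tested.

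H3K27me3 was counted over the whole gene, so levels are given as CPM per kb. Across the 9 genes the mean level over the 3 libraries ranged from 0.0764 at Cdk6 to 3.10 CPM per kb at Flt3. The median over 14542 named genes of at least 10 kb was 0.201, with quartiles of 0.0974 and 1.43. Flt3, Eya1, Mecom, Mef2c and Bcl2 lay above that median and Pbx3, Myb, Meis1 and Cdk6 below it.

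Flt3, the receptor tyrosine kinase for Flt3 ligand on early progenitors (chr5:147330741-147400489, mm10, minus strand), had the highest level in each library. It was 3.28 in floxed, 3.25 in deleted and 2.77 CPM per kb in rescue, from 559, 575 and 813 counts. By mean level, that places Flt3 above 88.6% of genes of at least 10 kb. Its 3 values lay above every value of the other 8 genes.

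Eya1, a transcriptional coactivator with phosphatase activity (chr1:14168953-14311035), had 0.988, 1.16 and 0.937 CPM per kb in floxed, deleted and rescue. Mecom, which encodes the zinc finger factor EVI1 (chr3:29951296-30509759, minus strand), had 0.882, 0.981 and 0.984. Mef2c, a MADS-box factor of myeloid and lymphoid progenitors (chr13:83504017-83667079, plus strand), had 0.765, 0.677 and 0.800. The ranges of Eya1 and Mecom overlapped, and each Mef2c value lay below each Mecom value. Of genes of at least 10 kb, 66.1% had a lower level than Mef2c, 69.2% a lower level than Mecom and 70.3% a lower level than Eya1.

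Bcl2, the founding inhibitor of mitochondrial apoptosis (chr1:106538176-106714290, minus strand), had 0.272, 0.428 and 0.184 CPM per kb. Its range met that of Pbx3, a TALE homeodomain partner of Hox proteins (chr2:34171457-34372045), with 0.188, 0.187 and 0.131. Myb, a factor needed for self-renewal in MLL leukemia (chr10:21124930-21160984, minus strand), had 0.147, 0.120 and 0.178. Pbx3 and Myb overlapped as well.

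The lowest levels were found at Meis1, the Hoxa9 cofactor most closely tied to MLL fusion leukemia (chr11:18880428-19019651, minus strand), and at Cdk6. Meis1 had 0.0915, 0.0911 and 0.137 CPM per kb, from 31, 32 and 80 counts. Cdk6, a kinase that drives entry into the cell cycle (chr5:3341004-3531008, plus strand), had 0.0966, 0.0510 and 0.0816, from 42, 23 and 61 counts. Only 13.6% of genes of at least 10 kb had less H3K27me3 per kb than Cdk6, and 30.0% less than Meis1.

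**Figure D1:**
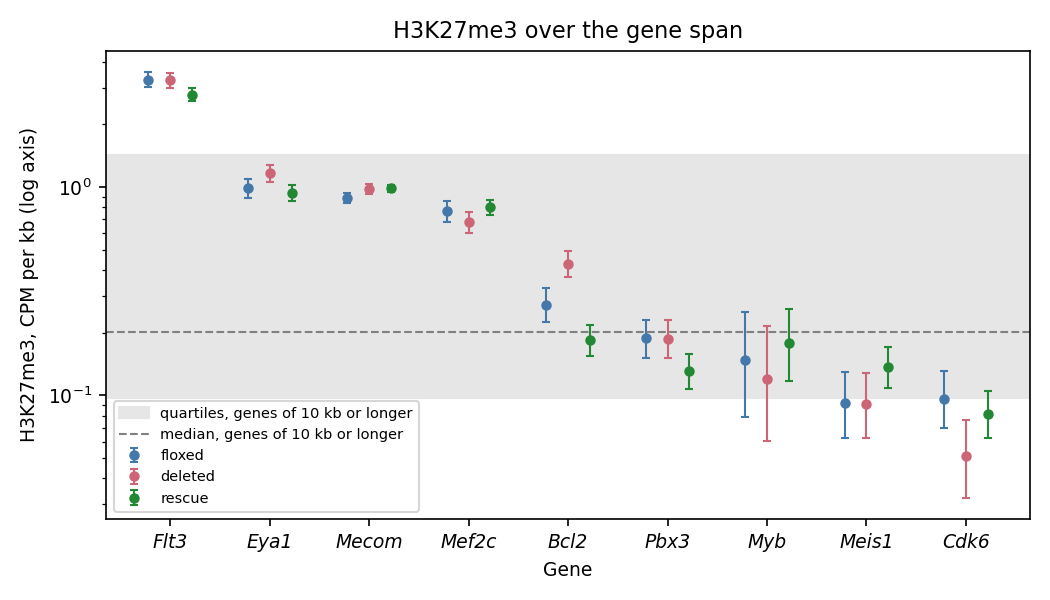
H3K27me3 in CPM per kb (log axis) over each of the 9 genes in the floxed, deleted and rescue libraries, ordered by mean level. Bars are 95% Poisson intervals of counting error, the grey band spans the quartiles (0.0974 to 1.43) and the dashed line is the median (0.201) of genes of at least 10 kb; Flt3 lies above the band in all 3 libraries and Cdk6 lies below it in all 3.

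For the comparisons between genotypes, a gene counted as measured if the 3 libraries of a mark averaged 20 counts or more. It was called if the CPM ratio reached 1.5-fold in either direction and its interval excluded 1, a rule that describes these libraries and not the conditions. For H3K27me3, 8 of the 9 genes were measured; Myb, with 13, 11 and 27 counts, was not.

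In deleted against floxed, Cdk6 was called lower and Bcl2 higher, and the other 6 measured genes were not called. Of all 10604 measured genes 5.39% were called lower and 4.72% higher, 10.1% together, so 1 gene of 8 in each direction is near what the whole table gives. The median log2 ratio of the 8 genes was -0.01, against 0.02 for all measured genes. For Cdk6, the values of 17.2, 9.07 and 14.5 CPM in floxed, deleted and rescue put the deleted library below both others. Its ratio was 0.528 (0.303 to 0.898), a log2 ratio of -0.89, and 2.01% of measured genes had a lower one. For Bcl2, with 117, 191 and 136 counts and 47.9, 75.3 and 32.4 CPM, the deleted library was the highest. Its ratio was 1.57 (1.24 to 2.00), a log2 ratio of 0.65, and 94.4% of measured genes had a lower one. Scaled to the pooled counts of ribosomal protein genes, the Bcl2 ratio was 1.10 (0.870 to 1.40) and not called, Cdk6 was lower at 0.369 (0.212 to 0.628), and Mef2c was called lower at 0.619 (0.525 to 0.731).

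Meis1 (ratio 0.995, 0.588 to 1.69), Pbx3 (0.996, 0.739 to 1.34) and Flt3 (0.992, 0.881 to 1.12) had ratios close to 1. Their intervals differ in width with depth: that of Meis1, from 31 and 32 counts, leaves room for a change of 1.5-fold, and that of Flt3 does not. Mecom (1.11, 1.03 to 1.20) and Eya1 (1.18, 1.02 to 1.36) were a little higher in the deleted library, and Mef2c had a ratio of 0.885 (0.750 to 1.04). Scaled to ribosomal protein genes, Mecom at 0.778 (0.720 to 0.841) and Eya1 at 0.823 (0.711 to 0.952) lay on the lower side, as did Pbx3 at 0.697 (0.517 to 0.938) and Flt3 at 0.694 (0.617 to 0.781), none of them called. Mecom rested on 1204, 1389 and 2309 counts, the largest numbers among the 9 genes, and Eya1 on 341, 416 and 556.

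In rescue against deleted, Bcl2 was called lower and no other of the 8 genes was called, where 11.3% of all measured genes were lower and 7.07% higher, 18.4% together. With edgeR TMM factors the split over all genes was 991 lower and 935 higher, against 1196 and 750 with library totals. The Bcl2 ratio was 0.430 (0.342 to 0.538), a log2 ratio of -1.21, and 2.62% of measured genes had a lower one. Both Bcl2 calls use the same deleted library, the highest of the 3. Cdk6 had a ratio of 1.60 (0.976 to 2.71) and Meis1 of 1.51 (0.989 to 2.35), each past 1.5 with an interval that includes 1. With edgeR TMM factors both were called higher, Cdk6 at 1.68 (1.03 to 2.85) and Meis1 at 1.59 (1.04 to 2.47), and with DESeq2 size factors at 1.65 (1.01 to 2.79) and 1.55 (1.02 to 2.42). Ribosomal protein genes were taken by symbol as genes mostly active in every cell and low in H3K27me3, without a check for silent paralogs. These genes had pooled values of 34.8, 49.7 and 82.1 CPM, a ratio of 1.65 (1.34 to 2.04) in this comparison. Their part in the Cdk6 and Meis1 ratios was not tested; scaled to them, Mecom at 0.607 (0.568 to 0.649), Eya1 at 0.488 (0.429 to 0.556), Pbx3 at 0.423 (0.318 to 0.562) and Flt3 at 0.516 (0.464 to 0.576) were also called lower, as were 6886 of all measured genes. On that scale Cdk6 was at 0.969 (0.591 to 1.64) and Meis1 at 0.913 (0.599 to 1.42).

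Pbx3 had 92, 95 and 110 counts; its rescue against deleted ratio was 0.698 (0.526 to 0.929), lower without reaching 1.5-fold. Eya1 had 0.806 (0.709 to 0.918), Flt3 0.853 (0.766 to 0.951), Mecom 1.003 (0.938 to 1.07) and Mef2c 1.18 (1.02 to 1.37). The median log2 ratio over the 8 genes was -0.11, against -0.06 for all measured genes.

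In rescue against floxed none of the 8 genes was called, with 8.05% of all measured genes lower and 5.72% higher, 13.8% together. The floxed and the rescue library each also enter another comparison, so the 3 sets of ratios are not independent. Bcl2 lay below the floxed library at 0.676 (0.524 to 0.873) and Pbx3 at 0.695 (0.522 to 0.927), both short of 1.5-fold. The Meis1 ratio was 1.501 (0.980 to 2.35), and with edgeR TMM factors it was called higher at 1.56 (1.02 to 2.44). Scaled to ribosomal protein genes all 8 were called lower, as were 9629 of all 10604 measured genes. Cdk6 had 0.845 (0.561 to 1.28), Flt3 0.846 (0.759 to 0.944), Eya1 0.948 (0.827 to 1.09), Mef2c 1.04 (0.907 to 1.21) and Mecom 1.12 (1.04 to 1.20). The median log2 ratio of the 8 was -0.16, against -0.05 for all measured genes.

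**Figure D2:**
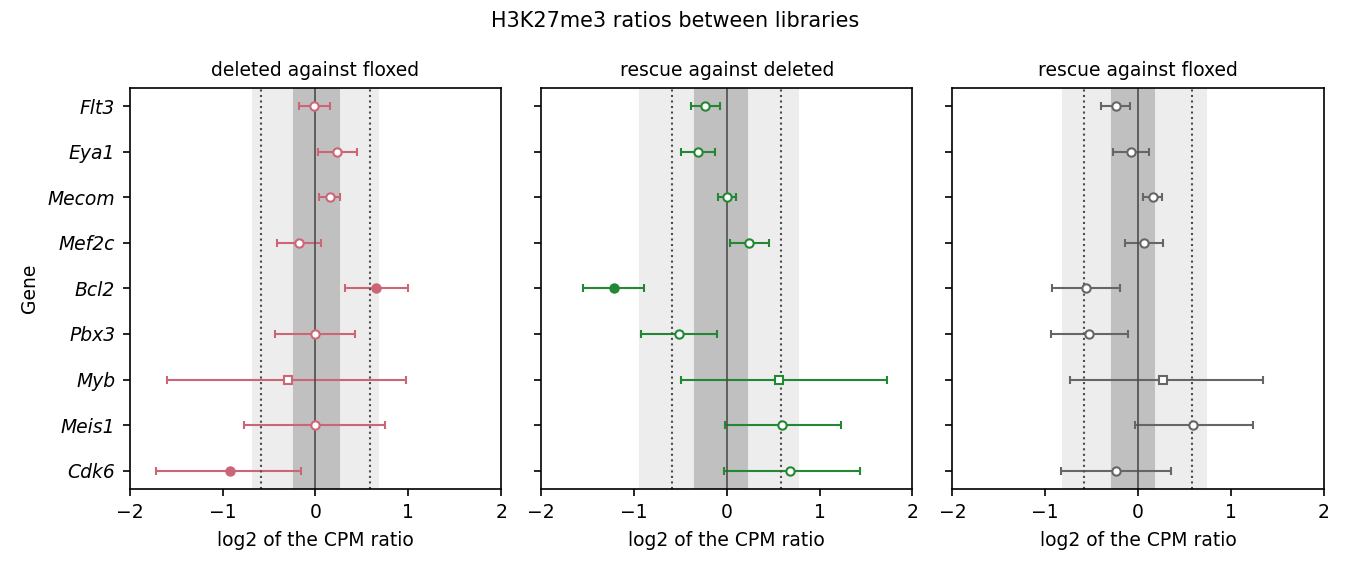
Log2 of the H3K27me3 CPM ratio of each gene in the 3 comparisons, with 95% intervals of counting error; filled points were called, open points were not, and the square marks Myb, which was not measured. Grey bands span the quartiles and the 5th to 95th percentile of all measured genes and dotted lines mark 1.5-fold; only Cdk6 and Bcl2 have filled points.

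Ratios between libraries differed with the H3K27me3 level, so each gene was set beside measured genes of like level, in 10 equal classes from low to high CPM per kb. In deleted against floxed, class 1, with Cdk6 and Meis1, had a median log2 ratio of -0.05. Class 2, with Pbx3 and Bcl2, had 0.09, class 4, with Mef2c, Mecom and Eya1, 0.20, and class 7, with Flt3, 0.05. Cdk6 at -0.89 and Bcl2 at 0.65 lay farther from the median of their class than did the other 6 genes. In the class of Cdk6, 63 of 1061 genes were called lower, and in that of Bcl2, 71 of 1060 were called higher.

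The genes closest to Cdk6 in H3K27me3 course, by distance over both log2 ratios (deleted against floxed, rescue against deleted; 3 libraries), were Has3, Hspb1 and Dcdc5. Has3 had 261, 147 and 381 counts and Dcdc5 41, 23 and 61. Closest to Bcl2 were Egfl7, with 26, 43 and 30 counts, Gm14164 and Gpc3, with 84, 137 and 95. Of the other 10603 measured genes, 194 lay within a distance of 0.25 of Cdk6 and 87 within 0.25 of Bcl2.

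The nearest genes on each side were read in the same way, where their counts allowed it. Next to Bcl2, Kdsr, which encodes an enzyme of sphingolipid synthesis 6.12 kb away, had 12, 6 and 17 H3K27me3 counts, and Vps4b had 5, 7 and 6; both were too low to be measured. On the other side, Gm20753 had 65, 55 and 101 counts and was not called. Phlpp1, a phosphatase gene 144 kb away there, had 888, 1120 and 1702 counts. Its ratios of 1.22 (1.11 to 1.33) in deleted against floxed and 0.917 (0.850 to 0.989) in rescue against deleted had the signs of those of Bcl2 and were not called. In rescue against floxed the directions differed, with Phlpp1 at 1.11 (1.03 to 1.21) and Bcl2 at 0.676 (0.524 to 0.873). Near Cdk6, Fam133b had 6, 6 and 12 counts and 1700109H08Rik 7, 4 and 17 on one side, and Gm15772 had 11, 2 and 5 and V1rg10 0, 1 and 1 on the other. All 4 were too low to be measured, so no neighbour can be set beside Cdk6. The Gm15772 ratio of deleted against floxed was 0.175 (0.0189 to 0.803).

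Flt3 lies beside 2 genes with far more H3K27me3 on one side and 2 with very little on the other. Urad, 8.30 kb away, had a mean of 13.3 CPM per kb, and the homeobox gene Cdx2, 23.5 kb away, 34.4. Pan3, 25.7 kb away on the opposite side, had 0.0898. In deleted against floxed, Cdx2 had a ratio of 0.716 (0.633 to 0.809), from 618, 459 and 932 counts in floxed, deleted and rescue, and Urad 0.712 (0.591 to 0.858), both short of the size rule. The interval of Flt3, 0.881 to 1.12, lies above both of theirs. Cdx2 and Urad are in class 10 of H3K27me3 level, where the median log2 ratio was -0.42 and 251 of 1061 genes were lower, and Flt3 is in class 7, so the difference between them is also one between classes.

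Near Mef2c, a neighbour had a higher level than the average of 0.747 CPM per kb over the Mef2c span. Where H3K27me3 lies within that span cannot be seen from a count over the whole gene. C130071C03Rik, a transcript 54.3 kb from the gene's end, had 16.7 CPM per kb, from 324, 245 and 628 counts, and the microRNA gene Mir9-2 had 12, 2 and 12 counts. C130071C03Rik was called higher in rescue against deleted, at 1.55 (1.33 to 1.80); it is in class 10, where the median log2 ratio was 0.32 and 167 of 1061 genes were higher. Mecom had a comparable neighbour in Actrt3, also in class 10, at 55, 49 and 141 counts. The Actrt3 ratio in rescue against deleted was 1.74 (1.25 to 2.45). Neither Mef2c nor Mecom was called there.

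**Figure D3:**
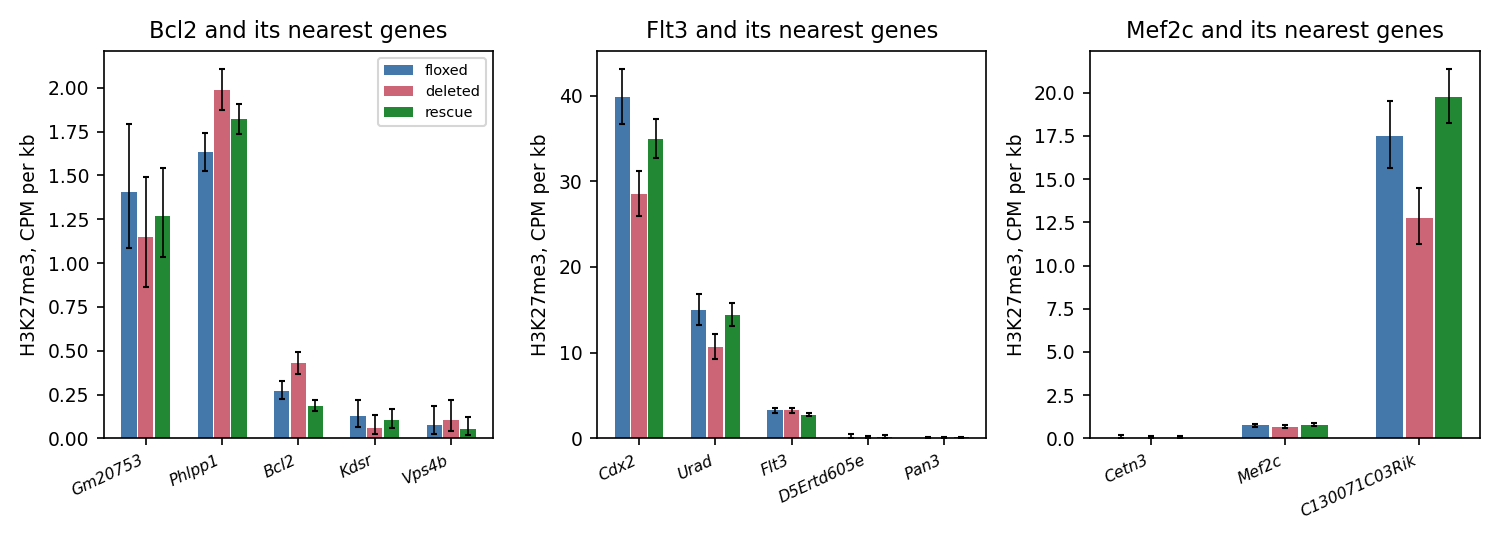
H3K27me3 in CPM per kb at Bcl2, Flt3 and Mef2c and up to 2 nearest named genes of at least 1 kb on each side, in order along the chromosome, in the floxed, deleted and rescue libraries. Bars start at 0 and lines are 95% Poisson intervals; Flt3 stands between Urad (13.3 CPM per kb on average) and Pan3 (0.0898), and C130071C03Rik exceeds Mef2c.

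Each gene has 1 H3K4me3 window of 301 bp. The sources used here do not say where it lies, and the counts differed by strand. Among genes with a strand in the RefSeq promoter table, 51.8% (50.7% to 52.8%, Clopper-Pearson) of 9234 plus-strand genes averaged 20 counts or more, against 3.91% (3.53% to 4.33%) of 9223 minus-strand genes. The median mean count was 23.7 on the plus strand and 0.667 on the minus strand. Of 6681 measured H3K4me3 genes, 5142 had a strand and 93.0% of these were on the plus strand. For minus-strand genes of at least 10 kb, 30.1% (20.5% to 41.2%) of 83 were measured where another gene starts within 500 bp of their low-coordinate end, against 1.63% (1.32% to 1.99%) of 5713 where none does. The low-coordinate end is as a rule the start of a plus-strand gene and the far end of a minus-strand gene. Counts were thus more often high where the low-coordinate end is at or near a start. A minus-strand gene's count was not read as promoter H3K4me3.

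**Figure D4:**
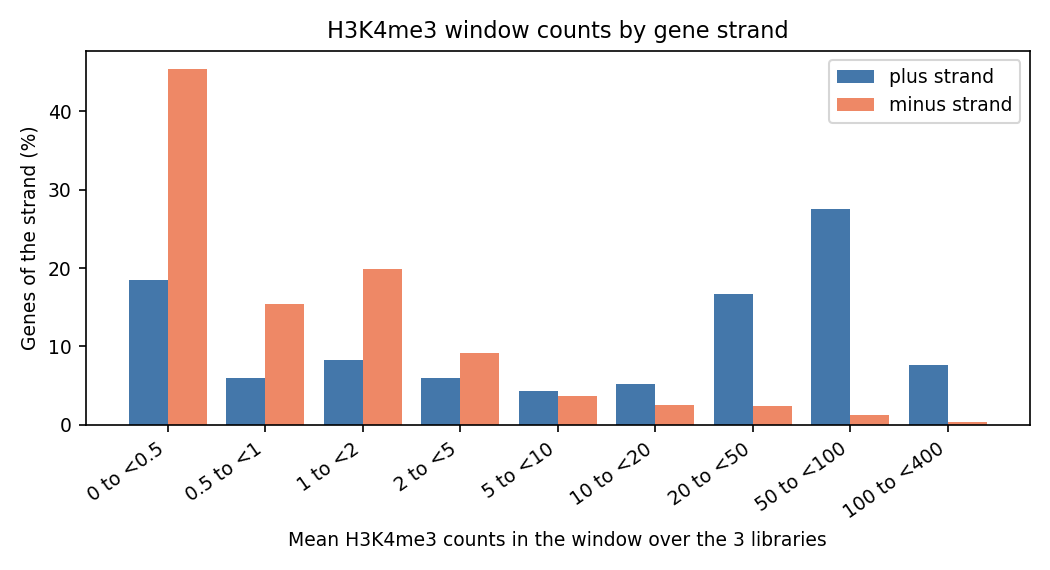
Share of plus-strand and minus-strand genes (percent of each strand) by mean H3K4me3 counts in the window over the 3 libraries. Plus-strand genes show a second group from 20 counts upward, with 27.5% between 50 and 100, where minus-strand genes hold 1.28%.

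Meis1, Myb, Bcl2, Mecom and Flt3 are annotated on the minus strand, and Eya1 and Pbx3 have no entry in that table. Meis1 had 4, 3 and 1 H3K4me3 counts in floxed, deleted and rescue, and Myb 4, 3 and 0. Bcl2, Eya1 and Flt3 each had 1, 0 and 0, Mecom 0, 0 and 2, and Pbx3 0 in all. A count of 0 allows up to 3 counts by the usual one-sided limit, or 4.65, 7.13 and 7.59 CPM in the 3 libraries. These 7 genes therefore have no usable promoter value for H3K4me3 here, and their ratios are not given.

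Of the 9 genes, Cdk6 and Mef2c are known from the table to lie on the plus strand. Cdk6 had 152, 78 and 92 counts, or 236, 185 and 233 CPM, above 94.2% of plus-strand genes by mean count. Its start in the promoter table follows position 3343892, inside the RefSeq span that begins at 3341004, and the counted length of 177914 bp in the files differs from that span of 190005 bp, so which position its window covers is not known. Mef2c had 0, 0 and 1. Its single window can cover at most 1 of its 3 annotated starts, so H3K4me3 at the others was not measured. The 250 bases before the annotated start of Cdk6 and of the first 2 of 3 annotated Mef2c starts show how the promoters differ, and that of Bcl2 is added as a CpG-rich promoter at the end of the gene that the window did not follow. Capitals mark each CG and each AATTAA or its reverse complement, TTAATT. The sequences are from RefSeq (GRCm38.p6, the assembly of mm10), 5′ to 3′ on the strand of the gene.
Cdk6, chr5:3343643-3343892, plus strand: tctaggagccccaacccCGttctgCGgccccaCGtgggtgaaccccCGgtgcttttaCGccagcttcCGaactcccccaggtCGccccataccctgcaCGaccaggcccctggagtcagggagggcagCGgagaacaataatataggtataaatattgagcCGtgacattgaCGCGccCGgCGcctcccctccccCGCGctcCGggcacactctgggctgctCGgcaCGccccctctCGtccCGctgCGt
Mef2c first start, chr13:83503784-83504033, plus strand: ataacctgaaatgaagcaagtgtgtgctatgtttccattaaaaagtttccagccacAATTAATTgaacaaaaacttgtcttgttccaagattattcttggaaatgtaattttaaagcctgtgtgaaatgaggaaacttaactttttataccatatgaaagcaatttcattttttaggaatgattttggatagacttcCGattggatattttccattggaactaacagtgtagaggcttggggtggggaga
Mef2c second start, chr13:83523406-83523655, plus strand: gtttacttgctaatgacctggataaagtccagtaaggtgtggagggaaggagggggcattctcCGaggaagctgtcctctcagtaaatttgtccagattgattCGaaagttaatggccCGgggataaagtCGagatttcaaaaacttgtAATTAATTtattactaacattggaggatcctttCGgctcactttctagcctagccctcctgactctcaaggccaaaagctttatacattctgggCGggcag
Bcl2, chr1:106714291-106714540, minus strand: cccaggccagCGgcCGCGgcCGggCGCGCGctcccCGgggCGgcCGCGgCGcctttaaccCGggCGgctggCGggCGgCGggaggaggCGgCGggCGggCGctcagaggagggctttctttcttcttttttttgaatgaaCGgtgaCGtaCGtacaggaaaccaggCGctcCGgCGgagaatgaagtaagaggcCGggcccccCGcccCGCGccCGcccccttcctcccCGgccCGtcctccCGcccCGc

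The upstream stretch of Cdk6 held 22 CG dinucleotides and that of Bcl2 36, against 1 and 6 for the 2 Mef2c starts. In the full table window of 300 bases, which runs 50 bases past the start, Cdk6 had 27, Bcl2 44, Myb 40, Mecom 19 and 9 at its 2 starts, Flt3 18, Meis1 15, and Mef2c 1, 10 and 4 at its 3 starts. Over all 32851 windows the median was 7. Both AATTAA matches at each of the first 2 Mef2c starts come from 1 palindromic stretch read on both strands. AATTAA, a core of the kind bound by Hhex-type homeodomains, was present in 11.3% of all windows, and in those of the other 6 genes with an entry it was not found. TGACAG, of the kind bound by Meis proteins, was found in the second Mecom window (19.2% of all windows hold it), and AACNGNC, of the Myb kind, in that window and in Flt3 (32.8% of all). Both strands were searched.

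Plus-strand genes with more CG in the promoter had more H3K4me3 counts. Of 1707 genes with 0 to 2 CG in the first window, the class of the first Mef2c start, 4.45% were measured and the median count was 0 in every library. Of 862 genes with 25 to 29, the class of Cdk6, 87.4% were measured, with medians of 79, 50 and 49 counts. Cdk6 thus had more H3K4me3 than the median of its class in each library. The Mef2c window had the count typical of the class of the first Mef2c start. This is a description across genes, which are not independent replicates.

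**Figure D5:**
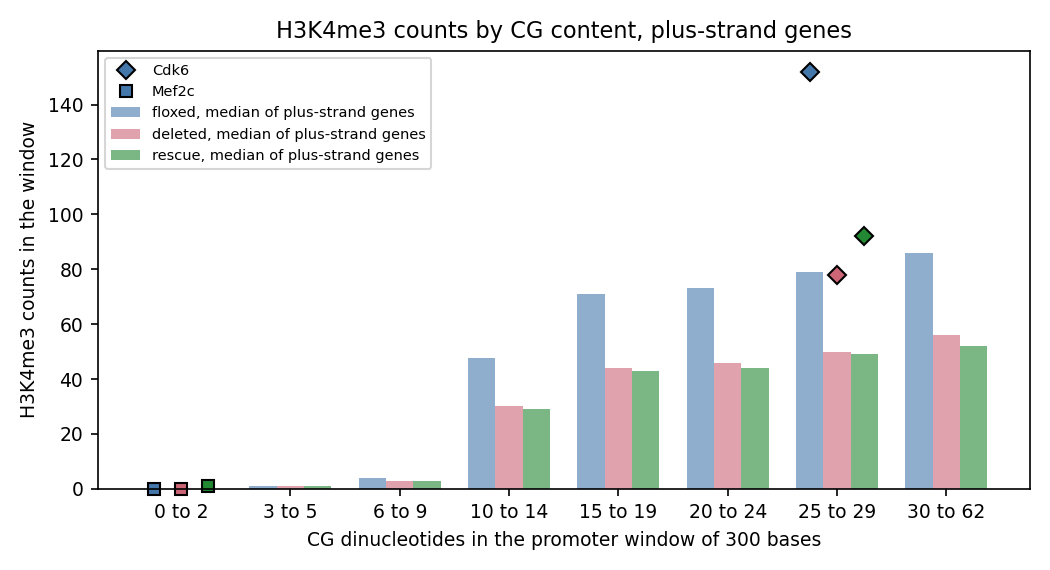
Median H3K4me3 counts in the window for plus-strand genes by CG dinucleotides in the promoter window of 300 bases (bars, 1 per library). Cdk6 (diamonds) and Mef2c (squares) are placed in the class of their first annotated start. Cdk6, at 152, 78 and 92 counts, lies above the bars of its class and Mef2c lies at 0, 0 and 1.

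Between genotypes, H3K4me3 at Cdk6 was not called in any comparison. Its ratio was 0.787 (0.591 to 1.04) in deleted against floxed, and of 6681 genes 4.39% were lower and 3.02% higher there, 7.41% together. In rescue against deleted it was 1.26 (0.919 to 1.72), with 5.97% of genes lower and 4.49% higher, 10.5% together. In rescue against floxed it was 0.988 (0.754 to 1.29), with 3.92% lower and 1.92% higher, 5.84% together. With edgeR TMM factors the split of all measured genes was 403 lower and 139 higher in deleted against floxed, against 293 and 202 with library totals, and 341 and 91 in rescue against floxed, against 262 and 128. The deleted library had the lowest value at Cdk6 for both marks. Scaled to pooled olfactory receptor genes (1116, 1167 and 906 CPM), the ratio of rescue against deleted was 1.62 (1.18 to 2.22) and was called higher.

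No Flag summit lay inside any of the 9 genes, within 10 kb or within 100 kb, out of 475, 220 and 429 summits in floxed, deleted and rescue. The floxed and deleted cells carry no tagged Hhex by their labels, so a summit list is not specific to the tagged protein. In rescue, the nearest summit lay 1069.6 kb from Flt3, 1209.6 kb from Meis1 and 2214 kb from Mef2c, and 7294 kb from Cdk6. In floxed, it lay 211 kb from Flt3. The summits nearest Meis1 and Flt3 in rescue had close counterparts without tagged Hhex, at 1209.7 kb in floxed and 1069.4 kb in deleted. For Mef2c and Cdk6, the nearest summits in floxed and deleted lay farther away than in rescue. Among all summits of the rescue library, 32.6% lay inside or within 10 kb of a named gene. This is a share of summits and not of genes. It stands for 140 summits beside 26611 named genes, so most named genes have no summit near them. The absence of summits at the 9 genes therefore does not set them apart from other genes.

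Other genes of the pathway were summarised in 3 lists, and these were not set beside genes of like H3K27me3 level. In the list of 22 genes for the fusion's complex and cofactors, 12 were measured for H3K27me3. In deleted against floxed 0 were higher, beside 4.72% over all measured genes, and the median log2 ratio was -0.01. In rescue against deleted, Aff1 and Mllt1 were among the genes called higher, and Aff4 and Mllt6 were lower, named after their values were seen. Over all measured genes, 7.07% were higher and 11.3% lower in that comparison. Mllt1, which encodes ENL, had a ratio of 2.17 (1.31 to 3.76) from 17, 20 and 72 counts, and Mllt6 had 173, 180 and 145 counts.

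Among 28 further targets and effectors, 17 were measured for H3K27me3, with 1 lower, 0 higher and a median of -0.13 in deleted against floxed, beside 5.39% lower and 4.72% higher over all. The lower gene was Nkx2-3, a homeobox gene, at 359, 236 and 575 counts, its ratio being 0.634 (0.535 to 0.749). In rescue against deleted 4 were higher (Jmjd1c, Runx1, Satb1, Sox4) and 3 lower (Ikzf2, Itgb3, Kit), named after their values were seen; over all measured genes 7.07% were higher and 11.3% lower. Kit, the stem cell factor receptor, had 255, 260 and 187 counts, its ratio being 0.434 (0.358 to 0.526). Runx1, a factor of blood stem cell formation, had 72, 65 and 203, its ratio being 1.88 (1.42 to 2.53).

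In the list of 34 paralogs and partners of the 9 genes, 20 were measured for H3K27me3, with 2 lower, 1 higher and a median of 0.04 in deleted against floxed, where 5.39% of all measured genes were lower and 4.72% higher. Ccnd2, a D-type cyclin that pairs with Cdk6, had 83, 30 and 74 counts, its ratio being 0.348 (0.222 to 0.535). In rescue against floxed Ccnd2 was also called lower, at 0.518 (0.374 to 0.718). Its rescue against deleted ratio of 1.49 (0.961 to 2.36) was not called. Six2, a homeobox gene of the family that works with Eya proteins, had 353, 229 and 571, a ratio of 0.625 (0.527 to 0.741). Pbx4, a paralog of Pbx3, was higher, at 62, 115 and 96 counts, its ratio being 1.79 (1.30 to 2.48), and was lower again in rescue against deleted at 0.504 (0.380 to 0.666). For H3K4me3, 0 of 9, 0 of 11 and 1 of 14 measured genes in these lists were called in deleted against floxed. Over all 6681 measured genes 4.39% were lower and 3.02% higher, 7.41% together. The list gene called was Six2, a minus-strand gene, with 20, 26 and 19 counts.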

How the data were processed

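The authors deposited 6 histone tables of raw counts, whole numbers for each gene. Tools named in the submitters' processing notes are featureCounts and MACS2, without a version, and the build is mm10; an aligner was not given in the sources used here. By the length column, H3K27me3 was counted over gene spans and H3K4me3 in windows of 301 bp. The Flag lists hold summit positions with the authors' −log10 score, which was not used. Rows without a symbol (568, 0.608% to 0.739% of counts) were left out.

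CPM are counts scaled to each library's named-gene total. Ratios carry exact conditional binomial (Clopper-Pearson) intervals; log2 ratios used a prior count of 1. Positions, strands and promoter sequences are from RefSeq GRCm38.p6 tables: 25271 named genes matched by Entrez identifier for position and 18458 for promoters. The tool versions were Python 3.11.15, SciPy 1.17.1, edgeR 4.0.16 and DESeq2 1.42.0; edgeR and DESeq2 gave scaling factors only. The ratio rule was tested on simulated data. Genes named besides the 9 were the 2 nearest per side, up to 5 called per list and mark in deleted against floxed, and the 3 most alike in course; genes named from the other comparisons were chosen after their values were seen. Genes and lists were chosen with earlier results of these data known, and the split by strand after seeing the data. Libraries of 1 genotype and mark have no replicate, so depth sets the intervals and nothing measures biological spread. For the list of complex and cofactor genes, some results are not reported here.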

Additional observations from a re-analysis of the deposited data

How the results depend on the processing

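The 2 genes called for H3K27me3 in deleted against floxed stayed Cdk6 and Bcl2 with edgeR TMM factors, DESeq2 size factors and no filter on counts. With a mean of at least 100 counts 1 remained, Bcl2, since Cdk6 falls under that filter, and with a ratio of at least 2 the number was 0. With the background list they were 2 but Cdk6 and Mef2c, both lower. In rescue against deleted 1 gene was called; the number was 3 with edgeR TMM factors, 3 with DESeq2 size factors (Meis1, Cdk6 and Bcl2 in each) and 5 with the background list (Bcl2, Mecom, Eya1, Pbx3 and Flt3, all lower). In rescue against floxed, where 0 were called, the number was 1 with edgeR TMM factors and 8 with the background list. The cause of these changes was not tested. For H3K4me3, where 0 were called in each comparison, the background list, there olfactory receptor genes, gave 1 (Cdk6) in rescue against deleted. For H3K27me3 the background list rests on 85, 126 and 345 pooled counts over 81 ribosomal protein genes. It moved the median log2 ratio of all measured genes to -0.48, -0.78 and -1.28 in the 3 comparisons. With the background list of each mark, 22 of 27 single log2 ratios moved past their interval, all of them for H3K27me3. The H3K4me3 ratios of Cdk6 stayed within theirs. With edgeR TMM factors, DESeq2 size factors or a prior count of 5, 0 of the 27 moved past their interval. Restricting H3K4me3 to plus-strand genes, added after seeing the data, could not change a call of these genes, since Cdk6, the 1 measured, is on that strand. Over all measured genes, the background list gave 3722 lower and 50 higher (572 and 500 with library totals), 6886 and 181 (1196 and 750), and 9629 and 66 (854 and 607) for H3K27me3 in that order. For H3K4me3 it gave 406 and 138 (293 and 202), 131 and 1595 (399 and 300), and 77 and 832 (262 and 128). Widening the summit distance from 10 to 100 kb left 0. No paired analysis was possible because each group has 1 library.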
